A study of Mus musculus with 39 samples.

Results

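The 39 arrays of a study of subcutaneous adipose tissue of C57BL/6J mice were ranked by the RNA level of 3 macrophage genes, and the 10 arrays at the top were set against the 10 at the bottom. The 3 genes were Cd68, which encodes a lysosomal glycoprotein of macrophages, Emr1 (now Adgre1), which encodes the F4/80 surface antigen, and Itgax, which encodes the integrin chain CD11c. The mean level of the 3 genes is called the macrophage score. The sides were thus chosen by measured values of the same arrays, so differences between them are given as a description with no test. The other 19 arrays belonged to neither side and were used for tests.

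The mice were weaned at 3 to 4 weeks of age and divided among 5 diets. LFC stands for the control chow low in fat (10 arrays) and HFC for chow rich in fat and sucrose (11 arrays). HF5, HF20 and HF75 stand for the HFC chow plus the botanical mixture KAL-1 at doses of 5, 20 and 75 µg (6 arrays each). KAL-1 diets were measured every 3 weeks from Week 3 to Week 18. LFC and HFC were measured then and at Day 6, Day 10, Day 14 and Week 0, and HFC also at Day 1. Weeks were counted after Day 14, so Day 14 and Week 0 name the same age in separate runs. They are kept as separate time points here. Each diet had 1 array under each time label, and although the submitters speak of 3 biological replicates, the sources used here do not say whether an array holds 1 animal, a pool or a repeat. All mice were wild type, and the tissue was whole, so an array reads adipocytes, blood vessels, immune cells and connective tissue together.

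Macrophages live in adipose tissue between the adipocytes, where they clear dead cells and lipid and release cytokines. Their number is known to grow in obesity, when monocytes enter from the blood and gather around dying adipocytes. Cells that take up lipid there express Trem2, Gpnmb and Itgax, whereas resident macrophages of lean tissue express Mrc1 and Folr2. CSF1 acting on its receptor Csf1r keeps macrophages alive. In RNA from whole tissue, fewer cells of a type and less RNA per cell cannot be told apart.

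A level is the log2 intensity of a gene's brightest probe minus the 75th percentile of its array, so that 0 stands for that percentile, 1 unit is a 2-fold step and many genes expressed in a minority of cells are below 0. Between 49.3 and 87.8% of spots were well above background on an array, and the 75th percentile lay between 108 and 1285 intensity units. The 75th percentile was 321 to 1243 units on the high side (median 658) and 108 to 803 on the low side (median 468), and the share of spots well above background was 60.0 to 84.1% and 49.3 to 82.1%. The part of brightness in the differences between the sides was not tested. The arrays labelled HF5 Week 12 and HF20 Week 12 matched each other's columns of the deposited ratio table (r = 0.999 across 40628 probes, against 0.664 for the column of their own label), so their labels may be crossed. Both were on the low side and both were KAL-1 arrays, so no count below depends on which is which.

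The score ran from 2.53 in HFC Week 6 down to -3.19 in HF75 Week 3. The high side held, in order, HFC Week 6, HFC Day 14, HF5 Week 9, HF20 Week 6, HFC Week 15, HF75 Week 9, HFC Week 18, HFC Day 10, HF75 Week 6 and HF5 Week 15. The low side held HF75 Week 15, LFC Day 10, HF20 Week 3, LFC Day 14, HF20 Week 12, HF5 Week 12, LFC Week 18, HF75 Week 18, HFC Day 1 and HF75 Week 3, the last with the lowest score. The edges of the sides were not gaps. The last array inside the high side scored 0.96 (HF5 Week 15) and the first outside 0.94 (HF5 Week 6), and the corresponding values at the low side were -0.63 (HF75 Week 15) and -0.52 (LFC Week 0). At the bottom, HFC Day 1 (-2.30) and HF75 Week 3 stood clear of the next array (HF75 Week 18, -1.03).

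**Figure D1:**
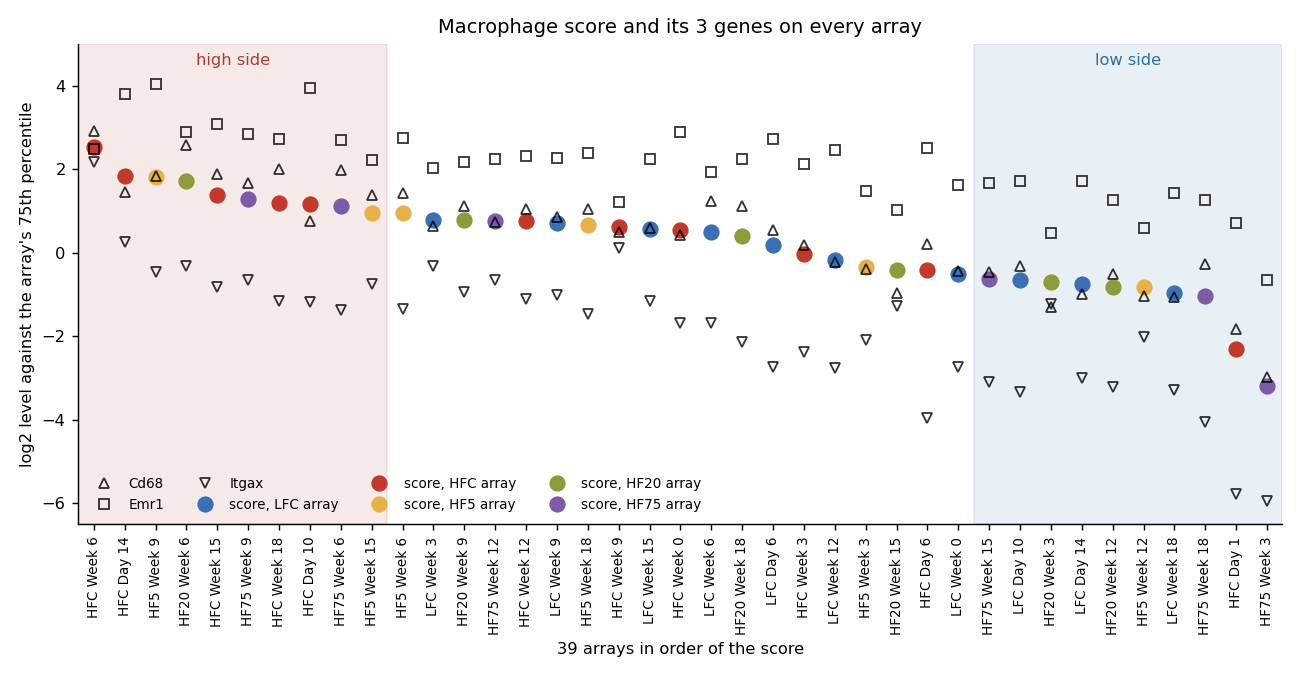
Macrophage score (filled circles, coloured by diet) and the levels of its 3 genes (open symbols) on each of the 39 arrays, ordered by score, in log2 units against the array's 75th percentile. The shaded ranges are the 10 arrays of each side, and no LFC array lies in the high one.

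No LFC array reached the high side. It held 5 HFC arrays and 5 KAL-1 arrays (2 of HF5, 1 of HF20 and 2 of HF75), whereas the low side held 3 LFC, 1 HFC and 6 KAL-1 arrays (1 of HF5, 2 of HF20 and 3 of HF75). Diet and time labels played no part in the choice, so they were tested with 3 two-sided Fisher exact tests, adjusted together. Of the HFC and LFC arrays in the sides, 5 of 6 HFC and 0 of 3 LFC arrays were on the high side, with p = 0.048 by the exact test and an adjusted p of 0.14, which did not pass. Of the arrays of Week 3 to Week 18, 5 of 11 KAL-1 and 3 of 3 HFC arrays were on the high side (exact p = 0.21, adjusted p = 0.31). Early LFC and HFC arrays (Day 1 to Week 0) were on the high side in 2 of 5 cases and late ones in 3 of 4 (exact p = 0.52, adjusted p = 0.52). With these numbers of arrays, 5 of 6 against 0 of 3 was the most uneven split possible for HFC and LFC. No split of these arrays could therefore have passed after adjustment, and the same held for KAL-1 against HFC. That these tests did not pass was fixed in advance and says nothing about the diets. The test of early against late arrays could see only a very uneven split.

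Over all arrays of a diet, the score averaged 0.66 ± 1.28 (SD, n = 11) in HFC, -0.03 ± 0.66 (n = 10) in LFC, 0.54 ± 0.96 (n = 6) in HF5, 0.17 ± 0.99 (n = 6) in HF20 and -0.28 ± 1.71 (n = 6) in HF75. The diets overlapped widely. At the 10 time labels with both diets, Day 14 and Week 0 among them, HFC scored above LFC at 7, by 0.99 ± 1.19 on average (SD). The differences ranged from 2.59 at Day 14 and 2.17 at Week 18 down to -0.81 at Week 3, where LFC was higher. HF5 and HF20 each lay below HFC in 5 of the 6 weeks and HF75 in 4, by an average of -0.54 ± 1.03, -0.91 ± 0.70 and -1.35 ± 1.45. The last value includes HF75 Week 3, the array with the lowest score of all. These differences within time points are a description and were not tested, and the Fisher exact tests make no use of the shared time points.

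Cd68 ran from 0.75 to 2.92 on the high side (median 1.86) and from -2.97 to -0.28 on the low side (median -1.02), with no overlap. Emr1 ran from 2.23 to 4.05 (median 2.87) against -0.65 to 1.73 (median 1.26). Itgax ran from -1.37 to 2.18 (median -0.70) against -5.95 to -1.24 (median -3.26). Itgax alone of the 3 overlapped, because HF20 Week 3 (-1.24) on the low side lay above HF75 Week 6 (-1.37) on the high side. Over the 39 arrays Cd68 correlated with Emr1 at r = 0.80 and with Itgax at 0.78, and Emr1 with Itgax at 0.56. These are descriptions over arrays that share scaling and, in part, muscle content.

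Of 19480 genes outside the score that were well above background on at least 10 of the 20 arrays, 93 were higher on every array of the high side than on any array of the low side (0.477% of the genes compared) and 4 were lower (0.0205%). Since the contrast was chosen on macrophage genes, nothing is read from these shares. All 93 had a value on all 20 arrays, and 60 were well above background on every one. Their differences of means ran from 0.58 to 3.07 log2 units with a median of 2.10, whereas the median over all genes compared was -0.07. At a difference of at least 1 log2 unit, 1688 genes were higher (8.67%) and 1665 lower (8.55%), so most differences of this size went with overlapping sides. Leaving out HFC Week 6 gave 143 genes higher without overlap and leaving out HFC Day 10 gave 141, each time with 92 of the 93 among them. That they remained was fixed in advance. Leaving out an array cannot make separate sides overlap, so a gene is lost only through the background filter. With a model-based background correction (normexp) the sides shared 9 and 8 arrays with those used here, and 43 genes were higher without overlap, 37 of them among the 93.

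Several of the 12 genes with the largest differences encode receptors. Csf1r, the receptor for the growth factor that macrophages depend on, ran from 1.11 to 3.43 on the high side (median 2.30) and from -1.02 to 0.64 on the low side (median -0.37), a difference of 2.76. Gpr65, a proton-sensing receptor of immune cells, ran from -1.23 to 0.44 (median -0.14) against -5.31 to -1.37 (median -3.21), a difference of 3.07. The highest Gpr65 value on the low side belonged to HF20 Week 3, the array that was also highest for Itgax there. Tlr7, an endosomal receptor for single-stranded RNA, ran from -1.32 to -0.29 (median -0.75) against -5.41 to -2.59 (median -3.27). The high side was narrow for this gene (SD 0.31) and the low side wider (SD 0.91). The inhibitory receptors Lilrb4 (now Lilrb4a) and Cd300a differed by 2.92 and 2.68. Dim probes depended on the background correction. With normexp and the same sides, Gpr65, Tlr7 and Cd300a differed by 1.64, 1.39 and 1.22. With its 2 probes averaged, Cd300a differed by 1.29.

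Genes of signalling and metabolism in blood-derived cells were also among those without overlap. Cd53, a leukocyte tetraspanin, ran from -0.60 to 1.27 (median 0.22) against -6.14 to -1.86 (median -2.32), a difference of 3.06. Dock2, which activates Rac in migrating leukocytes, differed by 3.00, and Slc37a2, a sugar phosphate transporter of macrophages, by 2.79. Tbxas1, the thromboxane synthase, ran from 0.21 to 1.56 (median 0.86) against -2.32 to -1.53 (median -1.92). It was the gene with the tightest low side among these (SD 0.30), and its difference was 2.81. Dpep2, a membrane dipeptidase, differed by 2.71, but it was well above background on 1 of the 10 low-side arrays, so that its low-side level is uncertain. With normexp, Cd53, Dock2, Slc37a2, Tbxas1 and Dpep2 differed by 1.74, 1.16, 1.23, 1.97 and 0.71. The 3 chains of complement C1q, C1qa, C1qb and C1qc, and the adaptor Tyrobp, through which Trem2 signals, were also among the 93, with differences of 2.33, 2.55, 2.02 and 2.47. These 4 were picked after their values were seen.

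Col6a1, a chain of collagen VI that stromal cells chiefly make, was also among the 12 genes with the largest differences. It ran from 2.80 to 4.95 on the high side (median 3.60) and from -0.88 to 1.93 on the low side (median 0.85), a difference of 2.81. The 4 genes lower on every high-side array were Lmo7, a LIM domain protein of cell junctions (difference -1.54), Gm6245 (-1.20), LOC100048324 (-1.04) and 1700021K19Rik, now Rubcn, a regulator of autophagy (-0.71). Lmo7 ran from 1.07 to 3.27 against 3.28 to 4.84, so that its sides were only just apart, and with its 3 probes averaged it differed by -0.74. No gene was lower without overlap when arrays were centred on their median. The count of 4 became 14 without HFC Day 10, 12 without LFC Day 10, 10 without HF5 Week 15, 9 without HF75 Week 6, 8 without HFC Day 14 and 7 without HFC Week 18 or HF75 Week 18.

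**Figure D2:**
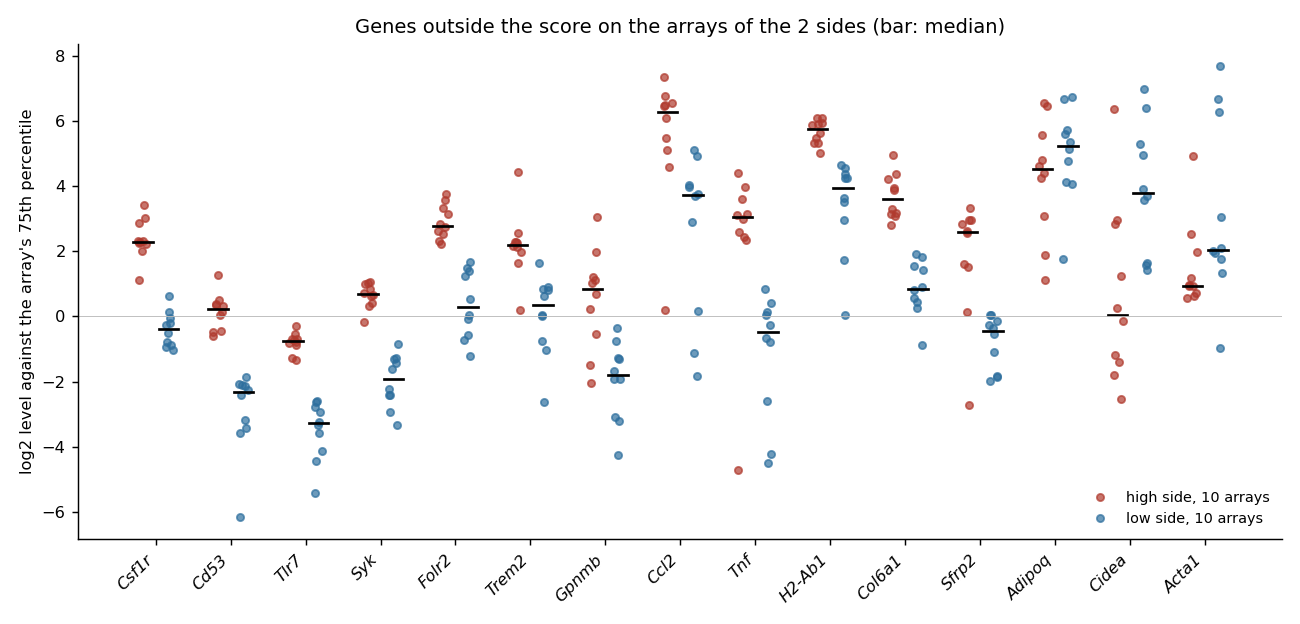
Log2 level of 15 genes outside the score on the 10 high-side (red) and 10 low-side (blue) arrays, with a bar at each median. Csf1r, Cd53, Tlr7, Syk, Folr2, H2-Ab1 and Col6a1 do not overlap, whereas Trem2, Gpnmb, Ccl2, Tnf, Sfrp2, Adipoq, Cidea and Acta1 do.

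Many genes of myeloid cells are bound near their start by the factor PU.1, whose core sequence is GAGGAAGT on either strand (ACTTCCTC read on the other). For the 93 genes, 73 had at least 1 RefSeq promoter entry on GRCm38.p6, and the 250 bases before each annotated start were searched. The core was in 4 of their 86 windows (4.65%) and in 802 of all 32851 windows (2.44%). The windows of the 4 genes are shown because these genes were higher together on the high side and carry the letters searched, which are in capitals. These genes were picked by that match. They belong to Vav1, an exchange factor of blood cells (difference 2.61), C1qc (2.02), Rab32, a GTPase of lysosome-related organelles (1.61), and Ctsc, a lysosomal protease (1.47).
Vav1, chr17:57278850-57279099 (+ strand): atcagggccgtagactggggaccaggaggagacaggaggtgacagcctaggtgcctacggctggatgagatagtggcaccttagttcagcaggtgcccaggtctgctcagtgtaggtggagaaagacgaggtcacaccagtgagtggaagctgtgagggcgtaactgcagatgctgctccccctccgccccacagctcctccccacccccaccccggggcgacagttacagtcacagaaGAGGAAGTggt
C1qc, chr4:136892915-136893164 (- strand): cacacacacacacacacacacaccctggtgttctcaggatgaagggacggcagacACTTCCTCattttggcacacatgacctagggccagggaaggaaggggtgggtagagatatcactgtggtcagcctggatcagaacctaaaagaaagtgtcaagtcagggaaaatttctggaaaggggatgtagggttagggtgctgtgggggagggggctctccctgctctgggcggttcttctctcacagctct
Rab32, chr10:10558208-10558457 (- strand): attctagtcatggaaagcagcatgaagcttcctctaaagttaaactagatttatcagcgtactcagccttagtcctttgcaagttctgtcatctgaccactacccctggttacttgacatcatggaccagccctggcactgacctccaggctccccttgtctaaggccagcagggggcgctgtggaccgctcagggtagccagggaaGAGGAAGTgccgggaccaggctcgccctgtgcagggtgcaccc
Ctsc, chr7:88277835-88278084 (+ strand): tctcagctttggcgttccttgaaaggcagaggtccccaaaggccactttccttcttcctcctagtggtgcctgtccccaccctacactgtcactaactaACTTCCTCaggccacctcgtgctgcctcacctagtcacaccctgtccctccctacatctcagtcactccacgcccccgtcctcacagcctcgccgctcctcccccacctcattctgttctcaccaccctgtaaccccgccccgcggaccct
In Vav1 the core began 11 bases before the start, in Rab32 43, in Ctsc 151 and in C1qc 195. The match of letters is a description and shows no binding.

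The 29 measured genes of a macrophage list, which left out the score genes, were all higher in mean on the high side, as were 45.3% of all genes compared. Of these, 27 differed by at least 1 log2 unit, 12 did not overlap, and the median difference was 2.16. The mean level of the list ran from 1.65 to 2.20 on the high side and from -1.51 to 0.90 on the low side. These genes were not used to choose the sides, but the list was written with earlier results of these data known. Nor was the direction particular to this list, as the cytokine, lymphocyte and MHC class II lists had medians of 2.33, 1.77 and 1.74. Cd14, the lipopolysaccharide co-receptor, differed by 2.68 and Ms4a6d, a membrane protein of macrophages, by 2.69, and both overlapped by at least 1 array. Within time points Cd14 differed by 1.24 and Ms4a6d by 2.20.

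Genes of lipid-associated macrophages were less uniform. All 19 were higher in mean, 11 by at least 1 log2 unit, but 1 was without overlap, and the median difference was 1.06. Trem2, the lipid receptor of these cells, ran from 0.21 (HFC Day 10) to 4.43 (HFC Week 6) on the high side (median 2.20) and from -2.61 (HFC Day 1) to 1.65 (HF5 Week 12) on the low side (median 0.34), a difference of 2.14. Gpnmb, a lysosomal glycoprotein, ran from -2.03 to 3.04 against -4.25 to -0.36, a difference of 2.49. Mmp12, the macrophage elastase, differed by 2.59 but was well above background on 2 low-side arrays, and Clec4d, a C-type lectin, by 2.72. For all 4 of Trem2, Gpnmb, Mmp12 and Clec4d, HFC Day 10 was the lowest array of the high side.

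Among 19 genes of resident and alternatively activated macrophages, 18 were higher in mean, 15 by at least 1 log2 unit, and the median difference was 1.85. Folr2, a folate receptor of resident macrophages, was without overlap, from 2.22 to 3.75 (median 2.79) against -1.21 to 1.67 (median 0.30). Mrc1, the mannose receptor, ran from 0.75 (HFC Week 6) to 3.05 (HFC Week 15), median 2.23, against -0.73 to 1.31 (median 0.26). Thus HFC Week 6, highest of all arrays for Trem2, was the lowest of the high side for Mrc1. Retnla, secreted by alternatively activated macrophages, differed by 2.16, and the chemokine Ccl8 by 2.24.

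Cytokine and chemokine genes had a median difference of 2.33 over 24 genes, the highest of any list with all 20 arrays, of which 22 differed by at least 1 log2 unit and 1 was without overlap. Tnf ran from -4.72 to 4.41 on the high side (median 3.06) and from -4.48 to 0.84 on the low side (median -0.46), a difference of 3.55. The lowest high-side value was HFC Day 10, and the next was 2.34, so that the other 9 high-side arrays all lay above the low side. Ccl2, which draws monocytes, ran from 0.19 (HFC Day 10) to 7.35 (median 6.26) against -1.83 to 5.10 (median 3.73) and was saturated on 3 high-side arrays. Ccl4, Ccl5, Il10 and Ccl3 differed by 4.13, 4.05, 3.93 and 3.65, and Ccl4 was saturated on 1 high-side array. Within time points the median of the list was 1.24, below those of MHC class II (1.56), macrophage (1.50) and resident macrophage genes (1.42), and Ccl4, Ccl3, Tnf and Ccl2 differed by 1.75, 1.28, 1.19 and 1.19. With HFC Day 10, HFC Day 1 and HF75 Week 3 left out, the median of the list was 2.04.

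Of 15 genes of MHC class II presentation and dendritic cells, 13 were higher by at least 1 log2 unit, with a median of 1.74 (1.04 with normexp). H2-Ab1, a class II chain, was without overlap, from 5.02 to 6.10 (median 5.75) against 0.05 to 4.63 (median 3.94). Its partner chain H2-Aa differed by 2.85 and the co-stimulatory receptor Cd86 by 2.83. Lysosomal genes differed less. Their median was 0.68, with 7 of 25 at 1 log2 unit or more, and Ctsc and the mannosidase Man2b1, at 1.47 and 1.40, were without overlap.

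Markers of other immune cells were mixed. Of 21 genes of T, B and NK lymphocytes, 16 were higher by at least 1 log2 unit, with a median of 1.77 and none without overlap, and the list mean ran from -4.75 to 0.25 on the high side and from -4.94 to -1.17 on the low side. Nkg7, of cytotoxic granules, ran from -3.72 (HFC Week 6) to 2.53 (median 0.76) against -5.36 to 0.36 (median -2.28). The defining T cell gene Cd3e, by contrast, had nearly the same median on both sides (-4.13 and -4.02). It was well above background on 8 high-side and 6 low-side arrays, and within time points it differed by 0.73. The B cell gene Cd79a differed by -0.26, which turned to 0.58 within time points. Cd79a was well above background on 6 high-side and 3 low-side arrays. Of 16 neutrophil and mast cell genes, 3 were higher by at least 1 log2 unit and 1 was lower, with a median of 0.37. The median of the lymphocyte list was 0.65 with normexp and 1.14 within time points. The median of the neutrophil and mast cell list was 0.04 within time points, -0.02 without HFC Day 1 and HF75 Week 3 and -0.09 without HF5 Week 12 as well. The part of lymphocytes in the differences was not tested.

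Connective tissue genes went with the macrophage genes. All 32 genes of the extracellular matrix list were higher in mean, 23 by at least 1 log2 unit, with a median of 1.36, and Col6a1 was without overlap. Mmp2, a gelatinase, ran from -0.05 to 5.01 (median 3.44) against -1.17 to 1.37 (median 0.42) on 9 low-side arrays, since the spot on HFC Day 1 was left out. Col6a2, another chain of collagen VI, and Loxl1, which cross-links elastin, differed by 2.35 and 2.30. Of 16 adipose progenitor genes, 10 were higher by at least 1 log2 unit and 1 was lower, with a median of 1.38. Sfrp2, a secreted Wnt antagonist of progenitors, ran from -2.70 (HFC Week 6) to 3.33 (HFC Week 15), median 2.60, against -1.97 to 0.05 (median -0.43). Without HFC Week 6 its sides would not have overlapped, as the next high-side value was 0.13. Endothelial genes did not share this direction between the sides. Of 15, 2 were higher in mean and 2 were lower by at least 1 log2 unit, the VEGF receptors Kdr and Flt1, at -1.41 and -1.21, with Flt1 saturated on 1 low-side array. The median was -0.36, and -1.10 within time points.

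Adipocyte genes overlapped throughout. The mean of 26 mature adipocyte genes ran from 0.96 to 5.24 on the high side and from 2.08 to 4.61 on the low side, and their median difference was -0.36. That median was -0.66 without HFC Day 1 and HF75 Week 3, -0.92 without HFC Day 10 as well, and -0.04 with quantile normalization. Adipoq, which encodes adiponectin, ran from 1.12 (HFC Week 15) to 6.55 (HFC Day 10), median 4.51, against 1.75 (HFC Day 1) to 6.74 (HF5 Week 12), median 5.24. It was saturated on 2 high-side arrays and 1 low-side array. Lep, which encodes leptin, ran from -4.35 to 3.28 (median -1.04) against -2.57 to 2.19 (median -1.63). The high side thus held arrays at both ends of the adipocyte range.

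Lipogenic genes were lower in mean for 15 of 16, 5 of them by at least 1 log2 unit, with a median of -0.83 (-0.51 with normexp). Fasn, the fatty acid synthase, ran from 3.12 to 6.47 (median 5.15) against 4.59 to 7.39 (median 6.32), and Scd1, the stearoyl-CoA desaturase, from 1.14 to 6.48 (median 3.94) against 1.66 to 6.98 (median 5.54). Each was saturated on some arrays (3 high and 2 low for Fasn, 2 high for Scd1). Gpd1, which makes the glycerol backbone of triglycerides, and Slc2a4, the insulin-regulated glucose transporter, differed by -1.88 and -1.84, and by -1.19 and -0.69 within time points. Gpd1 was saturated on 1 high-side and 3 low-side arrays and Slc2a4 on 1 low-side array. The adipose expansion genes Mest and Sfrp5 differed by 0.31 and -0.10, within the spread of either side (SD 1.06 to 1.29).

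With all 20 arrays, the lists with the lowest medians were skeletal muscle (-2.83, all 17 genes lower by at least 1 log2 unit) and thermogenic genes (-2.10, 9 of 15). Within time points their medians were -0.30 and -0.62, and those of immediate early (-1.50), nerve (-1.48) and endothelial genes (-1.10) were the lowest. The immediate early value includes Day 10, where the list mean was -0.70 in HFC and 4.06 in LFC. Acta1, skeletal muscle actin, ran from 0.57 to 4.93 on the high side (median 0.94) and from -0.96 to 7.67 on the low side (median 2.05), where it was saturated on the 3 highest arrays. Its difference of -1.65 turned to 0.28 within time points. The list mean reached 7.20 on HF75 Week 3, 6.02 on HFC Day 1 and 5.01 on HF5 Week 12, and on the other low-side arrays it lay between -1.70 and 0.68, inside the high-side range of -3.85 to 2.22. The first 2 of these arrays had the lowest macrophage scores of all 39. Without these 3 arrays, the median of the muscle list was -1.002, of the thermogenic list -1.17, of oxidative phosphorylation -0.40 (from -0.95) and of the macrophage list 1.75. With normexp and all 20 arrays, the median of the thermogenic list was -0.66. The part of muscle RNA in the scores was not tested. Without the 3 arrays, 123 genes were higher without overlap and 16 lower. That 92 of the 93 were among the former was fixed in advance, since leaving out arrays cannot create an overlap.

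Among thermogenic genes, Cidea, a lipid droplet protein of brown fat, ran from -2.53 to 6.37 (HFC Day 10), median 0.06, against 1.44 to 6.98 (median 3.80), a difference of -3.28. Ucp1, the uncoupling protein, ran from -3.81 to 2.59 (median -2.53) against -3.36 to 6.51 (median 0.25), a difference of -2.10. Cox8b, Cox7a1 and Fabp3 differed by -3.15, -3.05 and -2.60 and are also expressed in muscle. Within time points they differed by -1.57, -1.31 and 0.10, so that the direction of Fabp3 turned. Cox8b, Cox7a1 and Fabp3 were saturated on 1, 2 and 1 low-side arrays. All 30 genes of oxidative phosphorylation were lower in mean, 8 by at least 1 log2 unit. Cytoplasmic ribosomal protein genes differed by a median of 0.04 and cholesterol synthesis genes by 0.01, with 0 of 27 and 0 of 18 at 1 log2 unit, and both medians were below 0 (-0.04 and -0.06) with arrays centred on their median.

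**Figure D3:**
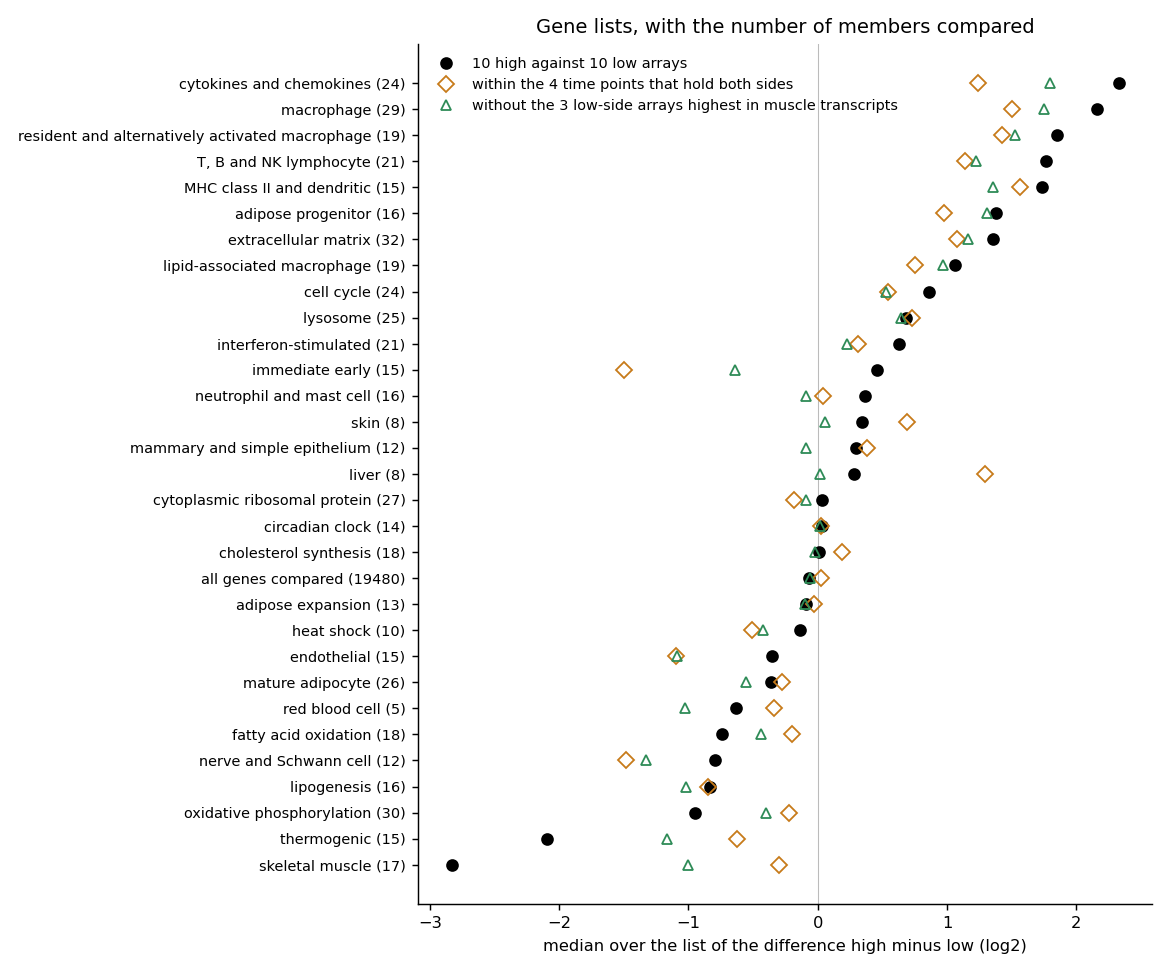
Median log2 difference, high minus low, over the compared members of 30 gene lists and over all genes compared, for the 10 against 10 arrays (filled circles), within the 4 time points that hold both sides (diamonds) and without the 3 low-side arrays highest in muscle transcripts (triangles). The macrophage list stays between 1.50 and 2.16 in all 3, whereas the skeletal muscle list moves from -2.83 to -0.30 within time points.

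The high side was not a single tissue state. HFC Week 6, with the highest score, also had the highest mean of the lipid-associated list (2.95, the next high-side array 2.13) and the highest Itgax (2.18, next 0.25), but the lowest means on the high side of the resident macrophage list (0.77, next 2.07), the progenitor list (-0.84, next 0.80) and the lymphocyte list (-4.75). HFC Day 10 had an Emr1 of 3.94, second highest of its side, but low levels of immediate early genes, which cells induce within minutes of a stimulus. Its mean over 15 immediate early genes, such as Fos and Fosb, transcription factors of the AP-1 family, was -0.70, and the next high-side array was at 3.95. Over the whole series, 6 arrays had an immediate early mean below 0 (HFC Day 1, HFC Day 6, LFC Day 6, HFC Day 10, LFC Week 12 and HF75 Week 3), and the other 33 lay at 3.22 or above. The same 6 arrays had the lowest cytokine list means, from -3.80 to -1.41, against -0.61 and above on the others. The part of tissue handling in this split was not tested. Between the sides, the immediate early list had a median difference of 0.46, which was -1.50 within time points. Fos differed by -7.41 at Day 10, and by -0.26, 0.20 and 0.93 at Day 14, Week 15 and Week 18. HFC Day 14 stood alone in liver transcripts, with a list mean of 4.37 against 0.09 for the next high-side array, and its values for fibrinogen (Fgb, 5.67) and fetuin A (Ahsg, 5.58) were the highest of both sides, Fgb from a saturated spot. The median of the liver list was 0.28 between the sides, 1.30 within time points, 0.70 with normexp and -0.01 without HFC Day 1 and HF75 Week 3. Within time points, Fgb differed by 9.23 at Day 14, and by 0.59, -0.69 and -5.19 at Day 10, Week 15 and Week 18.

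The remaining lists overlapped throughout. Interferon-stimulated genes had a median difference of 0.63 (7 of 21 higher by at least 1 log2 unit, 1 lower) and cell cycle genes of 0.86 (10 of 24, 1 lower). Genes of fatty acid oxidation had a median of -0.74, of nerve and Schwann cells -0.80 and of red blood cells -0.63. The medians were -0.14 for heat shock genes, 0.03 for clock genes, 0.30 for simple epithelium, 0.34 for skin, -0.09 for adipose expansion and -0.31 for sex-linked genes. Of these, heat shock and adipose expansion turned to 0.07 and 0.13 with quantile normalization, and clock genes to -0.04 with arrays centred on their median. Simple epithelium turned to -0.09 without HFC Day 1, HF75 Week 3 and HF5 Week 12, and sex-linked genes to 0.30 within time points. Also within time points, the median was -0.20 for fatty acid oxidation, -1.48 for nerve, -0.34 for red blood cells, -0.51 for heat shock, 0.31 for interferon-stimulated, 0.54 for cell cycle and 0.69 for skin genes. Without the same 3 arrays, it was 0.23 for interferon-stimulated, 0.53 for cell cycle, 0.05 for skin and -1.03 for red blood cell genes. With normexp, it was 0.46 for interferon-stimulated, 0.44 for cell cycle, 0.21 for skin and -0.35 for red blood cell genes.

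**Figure D4:**
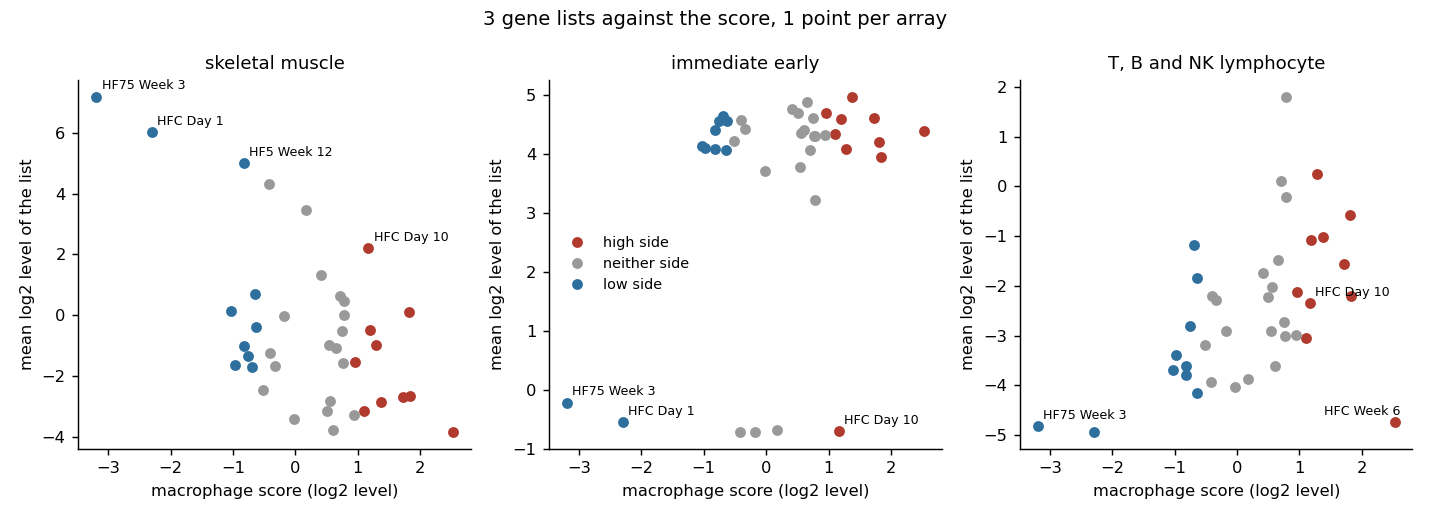
Mean log2 level of the skeletal muscle, immediate early and lymphocyte lists (vertical axes) against the macrophage score (horizontal axes), 1 point per array, for high-side (red), low-side (blue) and other arrays (grey). HF75 Week 3, HFC Day 1 and HF5 Week 12 are the highest in muscle transcripts, 6 arrays including HFC Day 10 have immediate early means below 0, and HFC Week 6 has a lymphocyte mean of -4.75.

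At 4 time points both sides had an array, and each of these was also a single scan day. At Day 10 and Day 14 the pair was HFC against LFC, at Week 15 HFC and HF5 stood against HF75, and at Week 18 HFC against LFC and HF75. Averaged over the 4, the difference was 2.34 for Csf1r (from 2.14 to 2.55), 2.53 for Tbxas1 (from 2.28 to 2.83) and 2.60 for Col6a1 (from 1.31 to 4.27). Trem2 differed by 0.15 at Day 10 and by 3.31 at Day 14. Tnf was lower on the high-side array at Day 10 (-4.45) and higher at the other 3 (1.91 to 4.22), and Ccl2 likewise (-3.57 at Day 10, and 1.41 to 5.25). Fasn and Scd1 were lower on the high side at all 4, by -1.10 and -1.02 on average. Leptin was higher at Day 10 and Day 14 (4.77 and 2.58), where the pair was HFC against LFC, and lower at Week 15 and Week 18 (-0.98 and -0.39). The median of the macrophage list was 1.50 within time points, that of oxidative phosphorylation -0.22.

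The 19 arrays of neither side took no part in the contrast of the sides, and their scores ran from -0.52 to 0.94. Among them, HF20 Week 15 had 4936 outlier-flagged spots, the most of the series, where the next highest array had 474. In the 19 arrays, each of 19069 genes was tested for a slope of its level on the score with limma. No gene passed an adjusted p of 0.05 (0% of the genes tested), and the smallest adjusted p was 0.17. At an unadjusted p under 0.05, 1112 genes had a slope above 0 (5.83%) and 1230 a slope below 0 (6.45%). These counts were 564 and 573 when time points were blocked, 586 and 519 with normexp, 715 and 855 without LFC Day 6, HFC Day 6 and LFC Week 12, and 1390 and 2037 without LFC Week 0. Without HF20 Week 15 they were 1493 and 1730. With each array centred on its median instead of its 75th percentile, 40 genes rose at an adjusted p under 0.05 and 0 fell, and the median slope of all genes moved from -0.02 to 0.34. With quantile normalization 1 gene, Bcl2a1c, rose. The 3 genes with the smallest p were Bcl2a1c, of the Bcl2a1 gene family (slope 2.16 ± 0.40 (SE) log2 units per unit of score), Ntrk3, a neurotrophin receptor (-1.86 ± 0.35), and Efnb3, an ephrin (-1.60 ± 0.30), each with an adjusted p of 0.17 by limma. Bcl2a1c has near-identical copies, among which a probe may not discriminate.

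All 93 genes without overlap were tested in these arrays. A slope above 0 was found for 85 of them, where 48.2% of the whole table had one. For 50 the slope above 0 had an unadjusted p under 0.05, where 5.83% of the whole table did. Their median slope was 0.61, and that of all genes -0.02. With the time point as a block, 77 of the 93 were above 0 and 34 had an unadjusted p under 0.05. Without LFC Day 6, HFC Day 6 and LFC Week 12, these numbers were 89 and 51. Cd53 and Syk, a kinase of immune receptors, had slopes of 1.48 and 1.50, Tlr7 of 0.58, Csf1r of 0.80 and Col6a1 of 0.62. None of these passed the adjusted threshold.

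By list, the median slope was 0.77 for macrophage genes (27 of 29 above 0, 19 with an unadjusted p under 0.05), 0.33 for lipid-associated genes (15 of 19 above 0, 5), 0.60 for resident macrophage genes (19 of 19, 5) and 1.68 for cytokine genes (24 of 25, 16). The immediate early list had a similar median slope of 1.63, with 15 of 15 above 0. Of the 6 arrays low in both lists, LFC Day 6, HFC Day 6 and LFC Week 12 were among these 19. Without them the median slope of cytokine genes was 0.81 (22 of 25 above 0, 6 with an unadjusted p under 0.05), that of immediate early genes -0.06 (6 of 15) and that of macrophage genes 0.83 (26 of 29, 19). With the time point as a block, 4 cytokine genes had an unadjusted p under 0.05 and the median was 0.89, and 12 macrophage, 1 lipid-associated and 7 resident macrophage genes had such a p. Without the 2 arrays farthest from the median score, 15 macrophage, 1 lipid-associated and 2 resident macrophage genes did. Markers of other immune cells also had mostly slopes above 0 in the same arrays. The median slope was 1.51 for lymphocyte genes (18 of 21 above 0, 11 with an unadjusted p under 0.05, 1 with the block) and 1.20 for MHC class II and dendritic cell genes (13 of 14, 9, and 3 with the block). The part of other immune cells in the slopes was not tested. Thermogenic genes had a median of -1.82, with all 15 below 0 and 7 of them at an unadjusted p under 0.05. HFC Day 6 and LFC Day 6 had muscle list means of 4.31 and 3.45. Without these arrays and LFC Week 12, the thermogenic median was -0.69, with all 15 still below 0 and 3 of them at an unadjusted p under 0.05, and with arrays centred on their median it was -0.24. Lipogenic genes had a median of -1.18 (all 15 below 0, 1 of them at an unadjusted p under 0.05), which was -0.23 without the 3 arrays and turned to 0.26 with arrays centred on their median. Extracellular matrix genes, at 1.36 between the sides, had a median slope of 0.28, with 27 of 32 above 0 and 0 with an unadjusted p under 0.05, and 0.10 without the 3 arrays (20 of 32). Endothelial genes, lower in median between the sides, had a median slope of 0.38 with 14 of 15 above 0, which turned to -0.20 (3 of 15) without the 3 arrays. No member of any list passed the adjusted threshold.

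**Figure D5:**
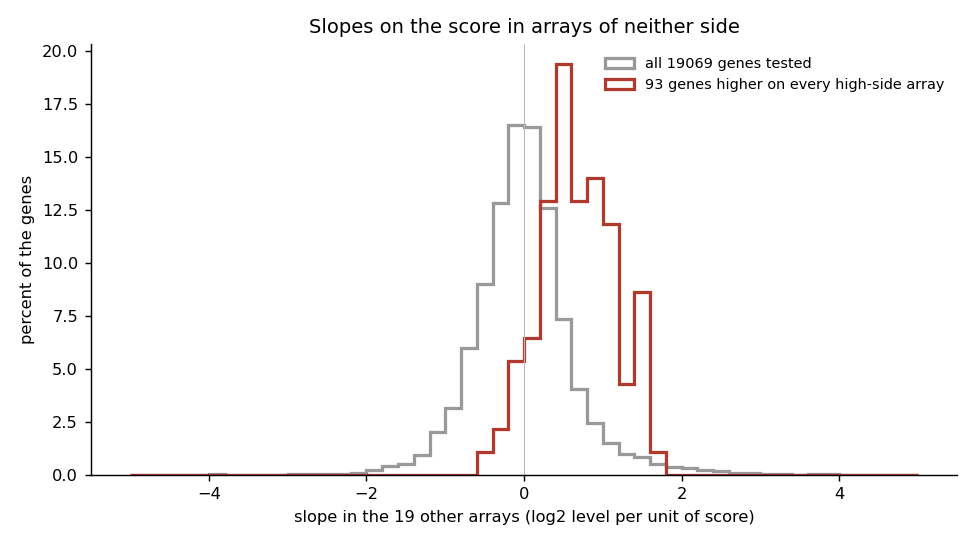
Distribution of the slope on the macrophage score in the 19 arrays of neither side, in log2 units per unit of score, as a percent of all 19069 genes tested (grey) and of the 93 genes that were higher on every high-side array (red). Of the 93 genes, 85 lie above 0.

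The 10 genes whose levels followed the score most closely over all 39 arrays were Itgb2 (r = 0.94), Mpeg1 (0.91), Igsf6 (0.91), Cd300a (0.91), AF251705, now Cd300c2 (0.90), Syk (0.90), Ctss (0.89), Ccdc109b, now Mcub (0.89), Nckap1l (0.89) and Lyz1 (0.89). These correlations include the 20 arrays that the score itself ranked and are a description. Itgb2 encodes the integrin chain that pairs with CD11c, the product of Itgax. It ran from 0.42 to 2.11 on the high side (median 0.94) and from -2.74 to -0.44 on the low side (median -1.54). Mpeg1 encodes a pore-forming protein of macrophages and Ctss cathepsin S, and they differed by 2.30 and 2.09. Lyz1, a lysozyme, is close in sequence to Lyz2, so its probe may read both.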

How the data were processed

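Total RNA of 39 subcutaneous adipose samples was labelled with Cy3 and hybridised to 1-colour Agilent mouse arrays. Per the file headers, Feature Extraction 10.5.1.1 subtracted background and corrected spatial trends to give the deposited processed intensity (the submitters' notes name version 9.1). Probes are annotated on mm9. The deposited log2 ratio table, in which the authors divided each array by LFC at its time point, was used only to check the labels of 2 arrays.

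Levels were log2 processed intensity minus the log2 75th percentile of an array's 43803 spots that are not controls. Outlier-flagged spots were left out, and a gene took its brightest probe. Genes well above background on at least 10 of the 20 arrays were compared, and on at least 10 of 19 for slopes. Slopes used limma 3.58.1 in R 4.3.3 (lmFit, eBayes, two-sided, Benjamini-Hochberg) and diets the Fisher exact test in scipy 1.17.1. The slope fit was tested on simulated data. Named genes were the 12 with the largest and the 12 with the smallest differences among those without overlap, the 3 slopes with the smallest p where none passed, up to 4 members a list with the largest absolute difference, 19 genes always named, and the 10 most correlated with the score; 2 genes that the rule names are not reported here. In all, 31 gene lists were described. Members, lists and rules were chosen with earlier results of these data known. The submitters speak of 3 biological replicates and each diet had 1 array under each time label; what animals an array holds is not given in the sources used here, so p-values measure only the spread between these arrays, whose number limits the precision. Alternatives are given in the closing section.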

Additional observations from a re-analysis of the deposited data

Results flagged for a closer look

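The groups were the sides and, for the score, also the LFC, HF5, HF20 and HF75 diets, with 10 arrays each or 6 for a KAL-1 diet. In 15 of 104 groups, the highest or lowest array stood far from the nearest other one by Dixon's criterion, which chance meets in about 1 in 20 groups. The 104 groups share arrays and genes, so they are not independent. The sides were also cut on the score, so this rate does not apply to the score and its 3 genes within a side. The entries for Itgax and Emr1 below are therefore descriptions. Most of the 15 came from HFC Day 10 and HFC Week 6.

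On the high side, HFC Day 10 was lowest for Ccl2 (0.19, nearest 4.58) and Tnf (-4.72, nearest 2.34), and for the means of the cytokine list (-1.41, nearest 2.06), the immediate early list (-0.70, nearest 3.95) and the circadian clock list (-0.80, nearest -0.35). It was highest for Acta1 (4.93, nearest 2.54) and for the means of the thermogenic list (0.88, nearest -1.50) and the oxidative phosphorylation list (5.12, nearest 4.05). HFC Week 6 was highest for Itgax (2.18, nearest 0.25) and the lipid-associated macrophage list (2.95, nearest 2.13), and lowest for the resident macrophage list (0.77, nearest 2.07) and the adipose progenitor list (-0.84, nearest 0.80). HFC Day 14 was highest for the liver list (4.37, nearest 0.09). On the low side, HF75 Week 3 was lowest for Emr1 (-0.65, nearest 0.46) and HFC Day 1 for the lysosome list (2.04, nearest 2.35).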

How the results depend on the processing

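The count of 93 genes higher and 4 lower without overlap depended on the processing and on the number of arrays a side. It was 43 and 2 with normexp, 140 and 5 with quantile normalization, 107 and 0 with arrays centred on their median, 128 and 5 with all probes of a gene averaged, 221 and 65 with 8 arrays a side and 30 and 0 with 13. It was 45 and 3 without Cd68 in the score, 63 and 2 without Emr1, and 125 and 30 without Itgax. The sides were chosen anew under each of these processing and score settings. Of the 93 genes, 27 remained higher without overlap when Cd68 was left out of the score, 24 without Emr1 and 70 without Itgax. The number was 37 with normexp, 71 with quantile normalization, 69 with arrays centred on their median and 71 with probes averaged. Among genes well above background on all 20 arrays it was 60 and 4. Some alternatives were chosen after seeing the data. Among these, it was 108 and 13 without HFC Day 1 and HF75 Week 3, 123 and 16 without HF5 Week 12 as well, 143 and 5 without HFC Week 6, and 166 and 27 without HFC Day 10, HFC Day 1 and HF75 Week 3. Leaving out each of the 20 arrays in turn, also chosen then, gave 92 to 143 genes higher and 4 to 14 lower. Arrays left out of fixed sides cannot create an overlap, so these counts could fall only through the background filter. A difference of at least 1 log2 unit in place of no overlap gave 1688 and 1665. The causes of the other changes were not tested. Genes with a rising slope numbered 1 with quantile normalization (Bcl2a1c, adjusted p = 0.049 by limma), 40 with arrays centred on their median and 0 under every other setting run. Changes of sign of list medians are given beside the lists, except that the liver list also turned to -0.35 without HFC Day 10, HFC Day 1 and HF75 Week 3, clock genes to -0.03 without the last 2 and to -0.01 without HFC Week 6, and the immediate early list to -0.54, -0.64 and -0.08 without the 2, 3 and 3 arrays named above. Cholesterol, ribosomal and adipose expansion genes, with medians near 0, took either sign. Of the single-gene values, 1829 stayed within 1 SD or on their side of the threshold and 56 moved further, mostly toward 0 with normexp or within time points. Of 133 named genes with overlapping sides, 13 changed sign within time points and 4 with normexp. Of 29 without overlap, 0 did. The slide as a block could not be fitted, because 1 slide held more than 1 of the 19 arrays. No paired analysis was possible by replicate number, because these numbers only name the arrays. Shared time points pair the diets, and a paired test of the score on them was not run. Dim spots limit differences such as those of Dpep2 and Mmp12.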
